A study of Saccharomyces cerevisiae with 68 samples.

Results

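YPS163 is a strain of the budding yeast Saccharomyces cerevisiae isolated from oak woodland, and its transcript levels were measured 5 and 15 min after the cells were moved from 25C to 37C. The arrays described here were chosen by their labels, which name YPS163 and 5 or 15 min of heat shock; they are 4 of the 68 arrays of the series, 2 at each time. The study followed 5 strains through heat shock on 2-colour microarrays, with 2 series of arrays per strain, to ask how the response depends on genotype. The groups set against YPS163 are the same 2 times in DBY8268 (a laboratory strain of the S288c background), K9 (a sake strain), and M22 and RM11-1a (vineyard strains), 2 arrays per strain and time. All cells grew exponentially at 25C in YPD, a rich medium with glucose, and heat was applied by mixing in prewarmed medium, which also diluted the culture; no arrays of cells given unheated medium were used here. Each array compares total RNA of heated cells with RNA of the same strain at 25C, so every log2 ratio is a change from that strain's own starting level and says nothing of the level itself. In series 1 the 25C RNA is labelled T0 (3) and the heated RNA is in channel 2; in series 2 it is labelled T0 (rep) and the channels are swapped. The 5 and 15 min arrays of a series share that 25C RNA, so the 2 times are not independent of each other. Each strain name stands for 1 strain and not for a population, no group carries a drug or an added allele in its labels, and the origins of the strains are background knowledge. A further 8 arrays compared YPS163, K9, M22 and RM11-1a with DBY8268 at 25C, 2 for each strain.

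When yeast is moved to a higher temperature, unfolded proteins activate the transcription factor Hsf1, which drives genes for chaperones, the proteins that refold or disaggregate other proteins. In parallel the factors Msn2 and Msn4 enter the nucleus and drive a general stress programme of trehalose synthesis, antioxidant enzymes and energy reserves. Genes for making ribosomes, which take up much of the transcription of growing cells, are turned down for a time and later recover.

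The YPS163 arrays gave values for 4909 and 3894 reading frames at 5 min (series 1, then series 2) and for 4570 and 4473 at 15 min; the other strains' arrays gave 4416 to 6098. Tests ran on 4670 genes with a value for every strain at both times, of which 2622 had all 4 YPS163 values, 1493 had 3 and 555 had 2. A gene is called here when its adjusted p is below 0.05 in a limma fit to 60 time-course arrays. The replicate arrays correlated across genes with r = 0.767 at 5 min and 0.839 at 15 min, and differed with a standard deviation (SD) of 0.461 and 0.503 per array against an SD across genes of 0.926 and 1.207 in the mean response. The 2 series stood apart on the genes for cytosolic ribosomal proteins: the median log2 ratio of this list was 0.155 in series 1 and −0.65 in series 2 at 5 min, and −1.31 and −2.70 at 15 min. Series 1 was above all 8 arrays of the other strains at both times, so results that touch these genes are given with each series left out. The labels also give each array a code. Both YPS163 arrays at 5 min have codes beginning yg8 and both at 15 min yg7, whereas all 8 arrays of the other strains at 5 min begin yg7. The code and the strain therefore cannot be told apart at 5 min, nor the code and the time within YPS163. The labels do not say if the 2 series were grown as separate cultures. The title of 1 YPS163 array of series 2, at 60 min, reads tech rep, and that array is in the fit. The p-values reflect the spread between arrays, pooled for each gene over all 5 strains, which may be technical only. Replicates of DBY8268, K9 and M22 differed less than those of YPS163, with SDs from 0.247 to 0.432. Those of RM11-1a differed more, with 0.469 and 0.551. The pooled spread may thus be smaller than that of the YPS163 arrays. The array measures RNA per total RNA of a culture, and fewer cells of a kind cannot be told apart from less RNA per cell. At 25C the asparaginase gene ASP3-1, which belongs to the laboratory strain's background, read −6.33 and −5.10 in YPS163 relative to DBY8268. It read −5.72 and −4.71 in K9, −6.36 in M22 and −6.8 and −6.1 in RM11-1a, so it does not set YPS163 apart from these strains. LEU2 and URA3, of leucine and uracil synthesis, read −5.57 and −6.43 in RM11-1a, on 1 array each. On the arrays of K9, M22 and YPS163 LEU2 read −0.29 to 1.08 and URA3 −1.11 to −0.19. The reason was not tested.

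The genes for small heat shock proteins and the disaggregase read about as high at 5 min as at 15 min. HSP26, a small heat shock protein that holds unfolded proteins, had log2 ratios of 8.32 and 7.29 at 5 min and 8.40 and 7.41 at 15 min in series 1 and 2. HSP42, the other small heat shock protein, read 7.49 and 6.58 at 5 min and 6.65 and 5.98 at 15 min. HSP104, the disaggregase that pulls proteins out of aggregates, read 6.99 and 6.14 and then 6.72 and 6.46. All 4 arrays of these 3 genes lay above 5.9, and neither time stood outside the other. SSA4, a heat-induced cytosolic Hsp70, read 6.39 and 6.30 at 5 min and 7.19 and 6.75 at 15 min, and HSP78, the mitochondrial disaggregase, 6.53 and 5.66 and then 6.11 and 6.40. Some chaperone genes rose less: SSA1, the main constitutive Hsp70, read 1.77 and 1.56 and then 2.47 and 2.03, and HSP82, the heat-induced Hsp90, 1.85 and 3.24 and then 2.73 and 3.24. KAR2, the Hsp70 of the endoplasmic reticulum, read 1.86 and 2.48 at 5 min and 2.21 and 2.36 at 15 min. For HSP78, HSP82 and KAR2 the arrays of the 2 times overlapped.

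Of the 18 heat shock genes followed singly, 17 could be tested and all 17 rose at both times, with a median log2 change of 4.19 at 5 min and 5.02 at 15 min. Of the 17, 12 had values on all 4 YPS163 arrays. HSP12 had 1 array per time, with 4.14 at 5 min in series 1 and 7.2 at 15 min in series 2. TSL1 had series 2 alone, with 4.71 at 5 min and 6.05 at 15 min. The calls of these genes take their spread from other groups. For comparison, 34.4% of all 4670 genes were called at 5 min (20.9% higher and 13.5% lower, median 0.08) and 54.7% at 15 min (31.4% higher and 23.3% lower, median 0.13). Over all genes the 5 min count of 1606 was 727 with the array code as a term, and 1635 with centred arrays, of which 52.1% were higher in place of 60.8%. The gene not tested, SIS1, an Hsp40 that guides Hsp70, was measured in series 1 alone and read 4.04 at 5 min and 4.10 at 15 min. UBI4, the polyubiquitin gene, differed between the series: it read 4.44 and 0.97 at 5 min and 6.31 and 3.06 at 15 min, and without series 1 its change was 0.75 (adjusted p = 0.691) at 5 min and 2.84 (adjusted p = 0.0669) at 15 min. None of the 17 tested genes was called different between YPS163 and the mean of the other strains at either time in the limma fit, with 1 of them at an unadjusted p under 0.05 at each time.

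**Figure D1:**
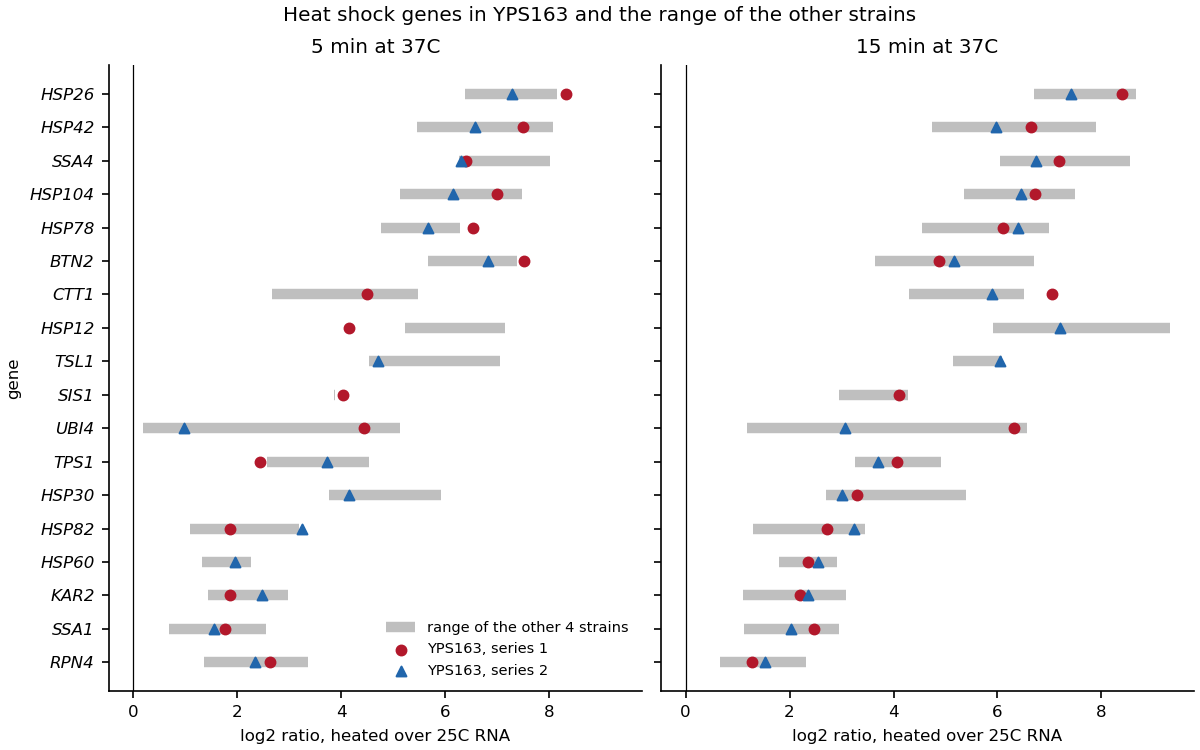
Log2 ratio of heated over 25C RNA (x axis) for 18 heat shock genes at 5 min and 15 min, with circles for YPS163 series 1, triangles for series 2 and grey bars for the range of the other 4 strains' arrays. HSP26 has the highest YPS163 values at both times, BTN2 is lower at 15 min in both series, and the 2 series are far apart for UBI4.

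The chaperone lists differed in how many members moved. In the list of disaggregase, small heat shock and aggregate-sorting genes all 7 tested members rose at both times (median 6.57 at 5 min and 5.02 at 15 min). Of 9 tested Hsp90 and co-chaperone genes 7 rose and 1 fell at both times (medians 1.47 and 1.90); STI1, which links Hsp70 to Hsp90, changed by 3.38 (adjusted p = 9.67e-15) and 3.99 (adjusted p = 1.12e-16), and AHA1, the activator of the Hsp90 ATPase, by 2.72 and 3.28. Of 20 cytosolic Hsp70 and Hsp40 genes 9 rose and 1 fell at 5 min, and 11 rose and 4 fell at 15 min. The fallers at 15 min included SSB1 and SSB2, the Hsp70 pair that sits on translating ribosomes, with fitted changes of −2.64 and −2.22; the sequences of this pair are near-identical and spots may not tell them apart. Mitochondrial chaperone genes rose in 6 of 11 at 5 min and in 7 of 11, with 1 lower, at 15 min, among them HSP60 and its partner HSP10, with changes at 15 min of 2.45 and 2.27. Of 13 chaperone genes of the endoplasmic reticulum 7 rose at 5 min and 6 at 15 min, ERO1, the oxidase that forms disulphide bonds, by 2.77 and 2.30.

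Nearly all general stress genes rose, with 25 of 26 called higher at each time (median 3.67 at 5 min and 4.53 at 15 min). Of the 26, 11 had values on all 4 YPS163 arrays. The list's median at 5 and 15 min was 3.4 and 4.01 without series 1 (18 genes). Without series 2 (16 genes) it was 3.28 and 4.45. With the array code as a term 19 of 26 rose at 5 min. PGM2, phosphoglucomutase at the entry to glycogen and trehalose, had log2 ratios of 5.00 and 5.15 at 5 min and 5.69 and 7.29 at 15 min. HXK1, a stress-induced hexokinase, read 4.93 and 5.64 and then 5.82 and 5.85, and CTT1, the cytosolic catalase, read 4.49 at 5 min in series 1 and 7.04 and 5.90 at 15 min in both. For PGM2 both 15 min arrays lay above both 5 min arrays and the change was 1.42 (SE 0.38, adjusted p = 0.0133), or 0.69 (adjusted p = 0.422) without series 2; for HXK1 the 2 times differed by 0.55 (adjusted p = 0.642). In the trehalose and glycogen list 14 of 15 rose at 5 min, and 14 rose and 1 fell at 15 min (medians 2.66 and 3.38). TPS1, trehalose-phosphate synthase, read 2.43 and 3.73 at 5 min and 4.06 and 3.70 at 15 min; TPS2, the phosphatase of the next step, read 3.64 and 4.16 and then 4.12 and 3.88. Antioxidant genes moved less as a list, with 15 of 26 higher and 1 lower at 5 min and 14 higher and 1 lower at 15 min (medians 0.55 and 0.50; 8 of 23 higher at each time without series 1 and 5 of 26 at 5 min with the array code as a term); PRX1, the mitochondrial peroxiredoxin, changed by 2.16 and 3.36. PNC1, the nicotinamidase of NAD salvage, read 3.69 and 4.79 at 5 min and 4.62 and 4.94 at 15 min.

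More genes of protein breakdown were called at 15 than at 5 min. Of 34 proteasome subunit and regulator genes 20 rose at 5 min (median 0.55) and all 34 rose at 15 min (median 1.23). At 5 min 20 of 34 rose without series 1, 3 of 30 without series 2, 7 with the array code as a term and 4 with the YPS163 arrays fitted alone; at 15 min 33 of 34 and 28 of 30 rose without either series. By array the list's median was 0.36 and 0.735 at 5 min and 1.31 and 1.19 at 15 min, so both 15 min arrays were above both 5 min arrays. RPN4, the transcription factor that drives proteasome genes, read 2.62 and 2.34 at 5 min and 1.28 and 1.52 at 15 min, a change of −1.08 (SE 0.31, adjusted p = 0.0157) in the other direction; without series 1 the difference was −0.82 (adjusted p = 0.294). Between the times 13 proteasome genes rose and RPN4 fell, where 4.45% of all genes rose and 8.09% fell (12.5% called in all); without series 1 none was called, without series 2 18 of 30 rose, and with the array code as a term 1 rose. Of 22 other ubiquitin and quality-control genes 11 rose and 1 fell at 5 min, and 17 rose and 1 fell at 15 min (without series 2, 4 rose and 2 fell of 15 at 5 min), with CDC48, the ATPase that extracts ubiquitinated proteins, at 0.44 (adjusted p = 0.0509) and then 1.25 (adjusted p = 2.78e-07). Autophagy genes rose in 7 of 16, with 1 lower, at 5 min and in 13 of 16 at 15 min; with the array code as a term 2 rose at 5 min. Genes of stress regulators gave 16 of 27 higher and 2 lower at 5 min and 20 higher and 3 lower at 15 min.

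At 5 min most ribosome assembly genes had fallen and few ribosomal protein genes had. Of 50 genes of the small-subunit processome 43 were lower (median −1.41) and 51 of 58 genes of large-subunit assembly (median −1.72); at 15 min the counts were 46 and 56 with medians of −1.70 and −1.99. NOG1, a GTPase of the large-subunit precursor, had log2 ratios of −3.31 and −3.70 at 5 min and −2.65 and −2.88 at 15 min. RRS1, a large-subunit assembly factor, changed by −2.75 (adjusted p = 1.74e-08) at 5 min and −2.45 (adjusted p = 5.39e-08) at 15 min. Of the 137 genes for cytosolic ribosomal proteins, 11 had fallen at 5 min (median −0.25) and 136 at 15 min (median −2.02). The count at 5 min turned on the series, with 36 lower without series 1, and 19 higher and 6 lower of 125 without series 2; with the array code as a term 1 was lower. The count at 15 min was 134 of 137 without series 1 and 118 of 125 without series 2. Subunits of RNA polymerases I and III, which transcribe ribosomal RNA and transfer RNA, fell in 15 of 22 at 5 min and 18 of 22 at 15 min. Translation factors and tRNA synthetases fell in 21 of 54, with 1 higher, at 5 min and in 48 of 54 at 15 min. Without series 2 the latter counts were 11 and 28 of 45, and with the array code as a term 6 of 54 fell at 5 min.

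**Figure D2:**
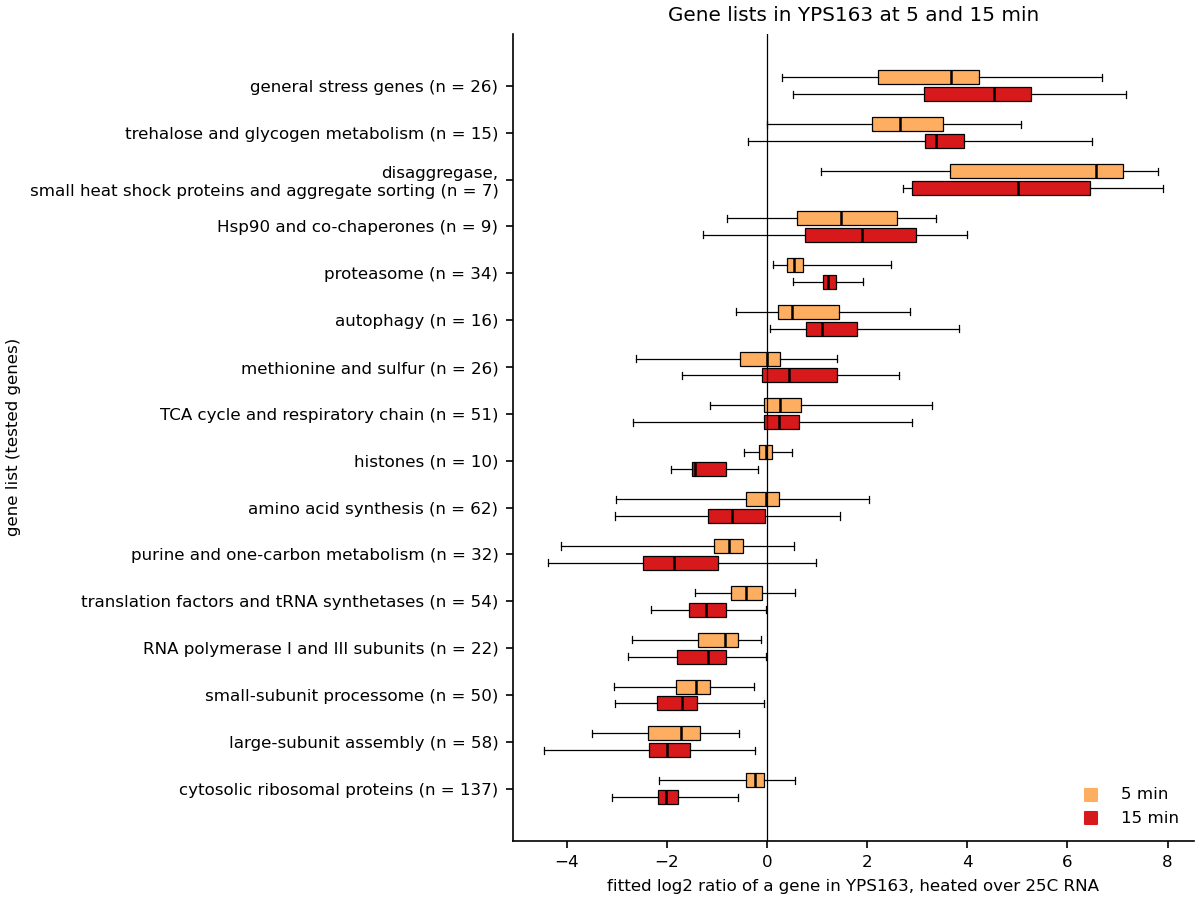
Fitted log2 change of YPS163 against its own 25C RNA (x axis) for 16 gene lists, with boxes at the quartiles, a line at the median and whiskers from the lowest to the highest member, orange at 5 min and red at 15 min. Disaggregase and small heat shock genes lie highest at 5 min; ribosomal protein genes move from a median of −0.25 to −2.02.

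Genes of phosphate uptake and purine metabolism were among the lowest. PHO84, the high-affinity phosphate transporter, had log2 ratios of −4.83 and −3.72 at 5 min and −3.66 and −3.61 at 15 min. HPT1, which salvages hypoxanthine and guanine, read −4.21 and −4.01 and then −4.70 and −4.06, and FCY22, a permease of the purine-cytosine family, was at −3.87 (adjusted p = 7.36e-11) and −2.61 (adjusted p = 4.48e-08). All 4 arrays of PHO84 and HPT1 lay below −3.6. Of 32 genes of purine and one-carbon metabolism 17 had fallen at 5 min (median −0.76), and 26 had fallen and 2 risen at 15 min (median −1.87). Of 15 phosphate starvation genes 8 fell and 1 rose at 5 min, and 11 fell and 1 rose at 15 min (median −1.34 at 15 min).

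From 5 to 15 min 586 genes changed, 208 upward and 378 downward, and 434 of them by 2-fold or more. Of these genes 271 were below 0 at 5 min and went further down, with a median of −0.41 at 5 min and −1.97 at 15 min. A further 133 were above 0 and went further up, with medians of 0.61 and 1.76. Fewer genes turned back: 21 above 0 came back toward 0 (medians 2.48 and 0.86), and 20 below 0 came back up (medians −1.85 and −0.37). In 86 genes the fitted value passed from above 0 to below it and in 55 from below to above. Counted by calls against 25C, 818 genes were higher and 489 lower at both times, 7 went from higher to lower and 5 from lower to higher, 287 were called at 5 min alone and 1234 at 15 min alone. The split turned with the series left out: without series 1, 40 genes went up and 328 down (368 in all), and without series 2, 262 went up and 213 down (475 in all). The median change over all genes was −0.17 without series 1 and 0.17 without series 2, so a shift of whole arrays enters the split. At 5 min the array medians were −0.04 in series 1 and 0.22 in series 2. With each array centred on its own median 182 genes went up and 409 down. The count of 586 became 341 with the array code as a term and 905 with the series as a block. It was 9 when only the 12 YPS163 time-course arrays were fitted.

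The downward changes included purine synthesis, ribosomal protein, nucleolar and histone genes. ADE13, adenylosuccinate lyase, had log2 ratios of −0.89 and −0.12 at 5 min and −4.21 and −2.79 at 15 min, and changed by −3.0 (SE 0.39, adjusted p = 3.96e-06). LYS4, homoaconitase of lysine synthesis, read −0.47 and −0.73 and then −3.04 and −3.02, a change of −2.43 (SE 0.27, adjusted p = 2.51e-07). RRP5, an RNA-binding factor of ribosome assembly, read −0.44 and −0.99 and then −2.63 and −3.46, a change of −2.33 (SE 0.30, adjusted p = 3.57e-06). In each of these 3 genes both 15 min arrays were below both 5 min arrays. Ribosomal protein genes fell between the times in 126 of 137 (median −1.77), in 126 without series 1, in 89 of 125 without series 2, in 109 with the array code as a term and in none when YPS163 was fitted alone. RPS29A and RPS29B changed by −2.36 and −2.36, and RPL37B by −2.31; many ribosomal protein genes come as near-identical pairs, RPS29A and RPS29B among them, and spots may not tell the members apart. Histone genes fell in 7 of 10 between the times (median −1.41): none was called at 5 min, while 9 were lower at 15 min. HTA2, a histone H2A gene, changed by −1.73 (adjusted p = 5.83e-05).

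Some heat-induced genes were lower at 15 than at 5 min. BTN2, which sorts misfolded proteins into aggregates, had log2 ratios of 7.52 and 6.82 at 5 min and 4.88 and 5.16 at 15 min, a change of −2.15 (SE 0.43, adjusted p = 0.000653); without series 1 the difference was −1.66 (adjusted p = 0.0797). FES1, an exchange factor that releases substrate from Hsp70, read 4.44 and 4.51 and then 2.19 and 2.66, a change of −2.05 (SE 0.23, adjusted p = 5.46e-07). ZPR1, a zinc-finger protein that works with translation elongation factor 1A, read 3.42 and 3.93 and then 1.57 and 0.86, a change of −2.46 (SE 0.30, adjusted p = 1.63e-06). For all 3 genes the arrays of the 2 times did not overlap and every array stayed above 0. CIN5, a basic leucine zipper factor of the YAP family, read 2.83 and 3.13 at 5 min and 0.96 and 1.60 at 15 min, a change of −1.70 (adjusted p = 0.00017). The hexose transporters HXT2, HXT3 and HXT4 changed between the times by −2.08, −1.91 and −2.18, and were the members called in a list of 15 transporters and sensors. HXT4 was at −2.19 (adjusted p = 0.0806) without series 1 and −2.16 (adjusted p = 0.0717) without series 2. The calls of FES1, ZPR1, LYS4, RRP5, HXT2 and RPA190, the largest subunit of RNA polymerase I, held in each setting in which they were recomputed.

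Among the genes that went up between the times, MET6, which makes methionine from homocysteine, had log2 ratios of −1.58 and −1.42 at 5 min and 1.56 and 1.26 at 15 min. It was lower than at 25C in both early arrays and higher in both later ones, a change of 2.91 (SE 0.69, adjusted p = 0.00314), and without series 1 it changed by 2.68 (adjusted p = 0.0717). Of 26 methionine and sulfur genes 3 were higher and 5 lower at 5 min, and 12 were higher and 3 lower at 15 min (median 0.44). The 15 min values differed between the series: without series 1, which leaves 16 genes, 4 were higher and 3 lower (median −0.10), and without series 2, which leaves 18, 9 were higher and 1 lower (median 0.86). Between the times 5 rose and 1 fell (list median 0.57), against 1 of 16 without series 1 and 6 of 18 without series 2; MUP1, the high-affinity methionine permease, changed by 1.56 (adjusted p = 0.000142) and MET3, ATP sulfurylase, by 0.97 (adjusted p = 0.0106), or by 0.42 (adjusted p = 0.6) without series 1. GLN1, glutamine synthetase, read −3.20 and −2.82 at 5 min and −0.28 and −1.90 at 15 min, a return toward 0 of 1.92 (adjusted p = 0.00142) that was 0.92 (adjusted p = 0.161) without series 1. PYC1, a pyruvate carboxylase, changed by 2.29 (adjusted p = 1.85e-05), and by 1.16 (adjusted p = 0.0514) without series 1. DCS2, a stress-induced inhibitor of mRNA cap breakdown, had 5 min arrays far apart, at 2.73 and 0.33 at 5 min and 4.76 and 5.21 at 15 min; its change of 3.46 (adjusted p = 0.00805) was 2.03 (adjusted p = 0.236) without series 2. APE1, the vacuolar aminopeptidase, changed by 2.02 (adjusted p = 0.000393) and PIM1, the mitochondrial Lon protease, by 1.43 (adjusted p = 3.96e-06).

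Cell wall genes gave 8 rises and 3 falls between the times among 32, but 2 rises and 3 falls of 28 without series 1 and 11 rises of 25 without series 2. CWP1, a cell wall mannoprotein, changed by 1.44 (adjusted p = 0.0143), SLT2, the kinase of the cell wall integrity pathway, by 1.36 (adjusted p = 0.000768), and the daughter-cell separation genes EGT2 and DSE4 by 1.70 and 1.59. TPS3, a regulatory subunit of trehalose synthase, changed by 1.69 (adjusted p = 0.00108), and by 0.54 (adjusted p = 0.457) without series 1. NTH1, neutral trehalase, rose from 5 to 15 min by 1.35 (adjusted p = 0.0042). Without series 1 the changes were 0.48 (adjusted p = 0.455) for SLT2 and 1.17 (adjusted p = 0.0536) for NTH1.

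The 7 genes called higher at 5 min and lower at 15 min included YDR133C, RPM2, OST5, NTF2 and MPC2. RPM2, the protein subunit of mitochondrial RNase P, had log2 ratios of 0.95 and 0.41 at 5 min and −0.30 and −0.69 at 15 min. MPC2, of the mitochondrial pyruvate carrier, read 0.23 and 0.54 and then −0.35 and −0.95, and NTF2, which carries Ran into the nucleus, 0.77 and 0.09 and then −0.20 and −0.57. In both series these 3 genes were above 0 at 5 min and below 0 at 15 min. In the opposite direction, RAD23, which delivers ubiquitinated proteins to the proteasome, read −0.71 and −0.07 at 5 min and 0.62 and 0.24 at 15 min, and DSE4, a daughter-cell glucanase, −0.97 and −0.24 and then 0.81 and 1.15.

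Across genes the YPS163 response followed the mean of the other strains with Pearson's r = 0.918 at 5 min and 0.935 at 15 min over the 4670 genes, and 0.779 for the change between the times; genes are not independent replicates. Against single strains r ranged from 0.854 (DBY8268) to 0.885 (M22 and RM11-1a) at 5 min and from 0.891 (DBY8268) to 0.912 (K9) at 15 min. At 5 min 39 genes (0.835% of those tested) differed between YPS163 and the mean of the other 4 strains, 34 (0.728%) higher and 5 (0.107%) lower in YPS163; at 15 min 254 genes (5.44%) differed, 225 (4.82%) higher and 29 (0.621%) lower, 93 of them by 2-fold or more. The median difference over all genes was 0.135 at 5 min and 0.19 at 15 min, so the arrays' centring enters the split. With each array centred on its own median the counts were 15 higher and 16 lower at 5 min and 87 higher and 52 lower at 15 min. With the array code as a term 1 gene was called at 5 min and 54 at 15 min, and with the series as a block the counts were 238 and 688. At 15 min YPS163 can be set against DBY8268 and M22 on arrays of the yg7 prefix alone, which leaves M22 with 1 array. The median difference was then 0.224 over 4410 tested genes, and no count is given. With all arrays this comparison called 364 genes. It was added after the data had been seen, and its strains have the highest single-strain counts given below. The part of the array code in the drop to 54 was thus not tested. The 5 min count was 142 without YPS163 series 1 and 128 without series 2, 4 and 22 without either DBY8268 array, 18 and 13 without either M22 array, and 19 without K9 series 1. The 15 min count was 138 and 350 without YPS163 series 1 and 2, 108 and 166 without either M22 array, and 168 without DBY8268 series 2. Both YPS163 arrays lay above all the others in 257 of 3523 genes (7.29%) at 15 min and below them in 29 (0.82%), counting genes with both arrays and at least 6 others; 106 and 13 of these were called. At 5 min they lay above in 153 of 3190 (4.8%) and below in 28 (0.88%), with 10 and 1 called. Against each strain alone the counts at 15 min were 439 (DBY8268), 124 (K9), 419 (M22) and 243 (RM11-1a), and at 5 min 125, 38, 93 and 22.

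**Figure D3:**
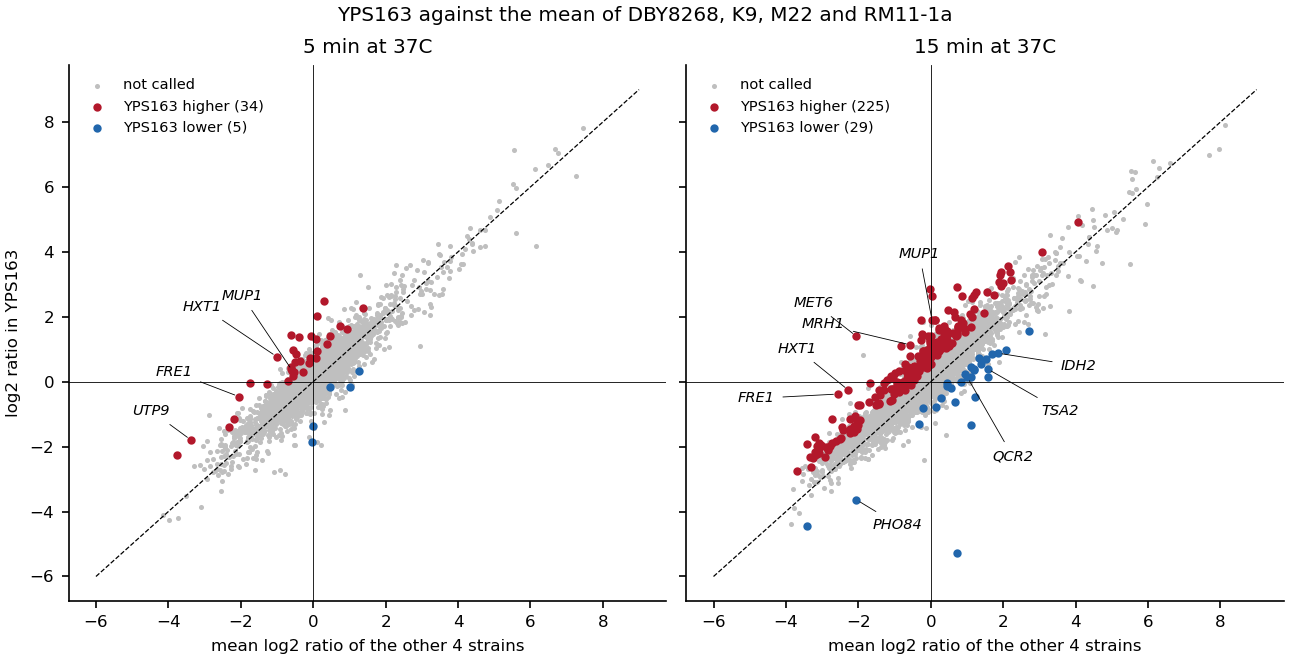
Fitted log2 change of YPS163 (y axis) against the mean of the other 4 strains (x axis) for each tested gene at 5 min and 15 min, with the dashed line at equality. Red points were called higher in YPS163 (34 and 225 genes) and blue points lower (5 and 29 genes), and most genes lie along the line.

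At 5 min the genes called different included a glucose transporter, a metal reductase and 3 of 50 small-subunit processome genes. Over all genes 0.728% were higher in YPS163 at this time. HXT1, the low-affinity glucose transporter, had log2 ratios of 0.34 and 1.21 in YPS163 and −1.58 to −0.14 (median −0.80) on the other arrays, a difference of 1.78 (SE 0.38, adjusted p = 0.0155); without series 2 it was 1.43 (adjusted p = 0.133). FRE1, the plasma membrane reductase that feeds iron and copper uptake, read −0.41 and −0.50 against −2.87 to −1.40 (median −2.03), a difference of 1.60 (SE 0.24, adjusted p = 0.000536). UTP9, of the small-subunit processome, read −1.58 and −2.0 against −5.58 to −2.16 (median −2.81), a difference of 1.59 (SE 0.30, adjusted p = 0.00615) that was 1.35 (adjusted p = 0.0773) without series 1. In all 3 genes both YPS163 arrays were above every other array. The other processome genes were UTP15 and EMG1, at 1.03 (adjusted p = 0.0492) and 0.91 (adjusted p = 0.0295); without series 1 5 of 42 were higher and 1 lower, without series 2 2 of 36 higher and 1 lower, and with the array code as a term none was called. The list of amino acid synthesis genes had 2 of 62 higher, 12 of 57 without series 1 and none of 51 without series 2. MSN4, the general stress factor named above, differed by 0.78 (adjusted p = 0.0222), and by 0.54 (adjusted p = 0.212) without series 2. EUG1, a disulphide isomerase of the endoplasmic reticulum, differed by 0.65 (adjusted p = 0.0425). SFA1, which handles formaldehyde and long-chain alcohols, was among the 5 lower genes at −0.94 (adjusted p = 0.00286). Without series 2 the differences were 0.49 (adjusted p = 0.238) for EUG1 and −0.71 (adjusted p = 0.0719) for SFA1. None of the calls of HXT1, FRE1, UTP9, MSN4, EUG1 and SFA1 held with the array code as a term, where FRE1 differed by 1.72 (adjusted p = 0.066) and HXT1 by 1.92 (adjusted p = 0.335). Of the 34 genes higher in YPS163, 10 had fitted values above 0 and 7 below 0 in both, and in 17 the fitted value was above 0 in YPS163 and below 0 in the others; over all 34 the medians were 0.68 and −0.48.

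At 15 min the methionine pathway held the largest difference among genes measured on all 4 arrays. MET6 had log2 ratios of 1.56 and 1.26 in YPS163 and −4.08 to −0.55 (median −2.17) on the other arrays, a difference of 3.47 (SE 0.54, adjusted p = 0.00012). Both YPS163 arrays were above 0 and every other array was below it. Of 26 tested methionine and sulfur genes 11 were higher in YPS163 than in the mean of the others and none lower (list median 0.73 against 0.19 for all genes), where 4.82% of all genes were higher. The count was 11 with centred arrays, 3 of 16 without series 1 (median 0.26), 9 of 18 without series 2 (median 1.18) and 7 with the array code as a term. MUP1 read 2.13 and 1.67 against −0.87 to 0.99 (median 0.08), a difference of 1.87 (SE 0.22, adjusted p = 5.53e-07), and MET3 differed by 1.11 (adjusted p = 0.00167), by 0.91 (adjusted p = 0.0502) without series 1. IRC7, a cysteine lyase, differed by 1.66 (adjusted p = 0.00333). MET17, which joins sulfide to O-acetylhomoserine, lacks a 5 min value in series 2 and was picked after its values were seen: it read 2.65 and 2.63 against a fitted mean of 0.03 in the others, a difference of 2.61 (adjusted p = 0.00012). Against their own 25C RNA the other strains together had 3 list members higher and 13 lower at 5 min, and 7 higher and 11 lower at 15 min. Over all genes they had 64.4% called at 5 min (29.6% higher and 34.9% lower) and 75.6% at 15 min (36.7% higher and 38.9% lower), from 8 arrays per time in place of 2.

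A difference in response and a difference at 25C both contain the YPS163 level at 25C, so their values are given side by side. In the limma fit at 25C MET6 in YPS163 was −2.10 relative to the mean of the other 4 strains (adjusted p = 0.0225). Relative to DBY8268 MET6 was −0.55 (adjusted p = 0.299) and IRC7 −1.16 (adjusted p = 0.0162). Of 25 methionine and sulfur genes 4 were lower than in DBY8268 and none higher. The list's median at 25C was −0.17 relative to DBY8268 and −0.76 relative to the mean of the other 4 strains. For the difference in response at 15 min it was 0.73. Over all genes 1098 of 5306 (20.7%) differed between YPS163 and DBY8268 at 25C, 424 higher (7.99%) and 674 lower (12.7%), and 342 or 348 differed when either YPS163 array at 25C was left out.

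Other genes higher in YPS163 at 15 min included 3 of 30 iron and copper genes and 1 of 15 hexose transporters and sensors. Higher too were 7 of 62 amino acid synthesis genes and 3 of 32 cell wall genes. Over all genes 4.82% were higher, and counts of 1 or 3 members are not read as a trait of their list. FRE1 had log2 ratios of −0.53 and −0.23 against −3.47 to −1.63 (median −2.61), a difference of 2.19 (SE 0.24, adjusted p = 2.72e-07), and CTR1, the copper transporter, differed by 0.95 (adjusted p = 0.0289). HXT1 read −0.30 and −0.21 against −3.49 to −1.02 (median −2.41), a difference of 2.02 (SE 0.37, adjusted p = 0.00138) that was 1.71 (adjusted p = 0.0797) with the array code as a term. For FRE1 and HXT1 both YPS163 arrays lay above the range of the others. LEU1 and BAT1, of leucine and branched-chain amino acid synthesis, differed by 1.70 (adjusted p = 1.66e-05) and 1.08 (adjusted p = 0.00239), from the amino acid list, which had 3 higher with centred arrays, 3 of 57 without series 1, 5 of 51 without series 2 and 2 with the array code as a term. For LEU1 and BAT1 the other strains include RM11-1a, whose LEU2 reading at 25C was low, as given above. MRH1, a membrane protein related to Hsp30, read 0.78 and 1.49 against −1.69 to 0.27 (median −0.70), a difference of 1.70 (SE 0.31, adjusted p = 0.0012), and PMA1, the proton pump, differed by 1.06 (adjusted p = 0.0144). CWP1 differed by 1.44 (adjusted p = 0.0065), ZRT1, the zinc transporter, by 1.06 (adjusted p = 0.016), and NTH1 by 0.93 (adjusted p = 0.0288). TPS3 differed by 1.44 (adjusted p = 0.00239), but by 0.47 (adjusted p = 0.416) without series 1. Without series 1 the difference was 0.77 (adjusted p = 0.303) for CTR1, 0.61 (adjusted p = 0.255) for BAT1, 0.88 (adjusted p = 0.0974) for PMA1 and 0.78 (adjusted p = 0.153) for NTH1, and without series 2 it was 1.13 (adjusted p = 0.0568) for CTR1 and 0.73 (adjusted p = 0.136) for ZRT1. The calls of CTR1, MRH1, PMA1, ZRT1 and NTH1 were also lost with the array code as a term, whose part in the result was not tested further. Of the 225 higher genes 81 had fitted values above 0 in YPS163 and in the others and 77 below 0 in both. A further 65 were above 0 in YPS163 and below 0 in the others. Over all 4670 tested genes 513 were above 0 in YPS163 and below 0 in the others, and 177 the other way. The median of all genes was 0.125 in YPS163 and −0.018 in the others, so the arrays' centring enters these counts.

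**Figure D4:**
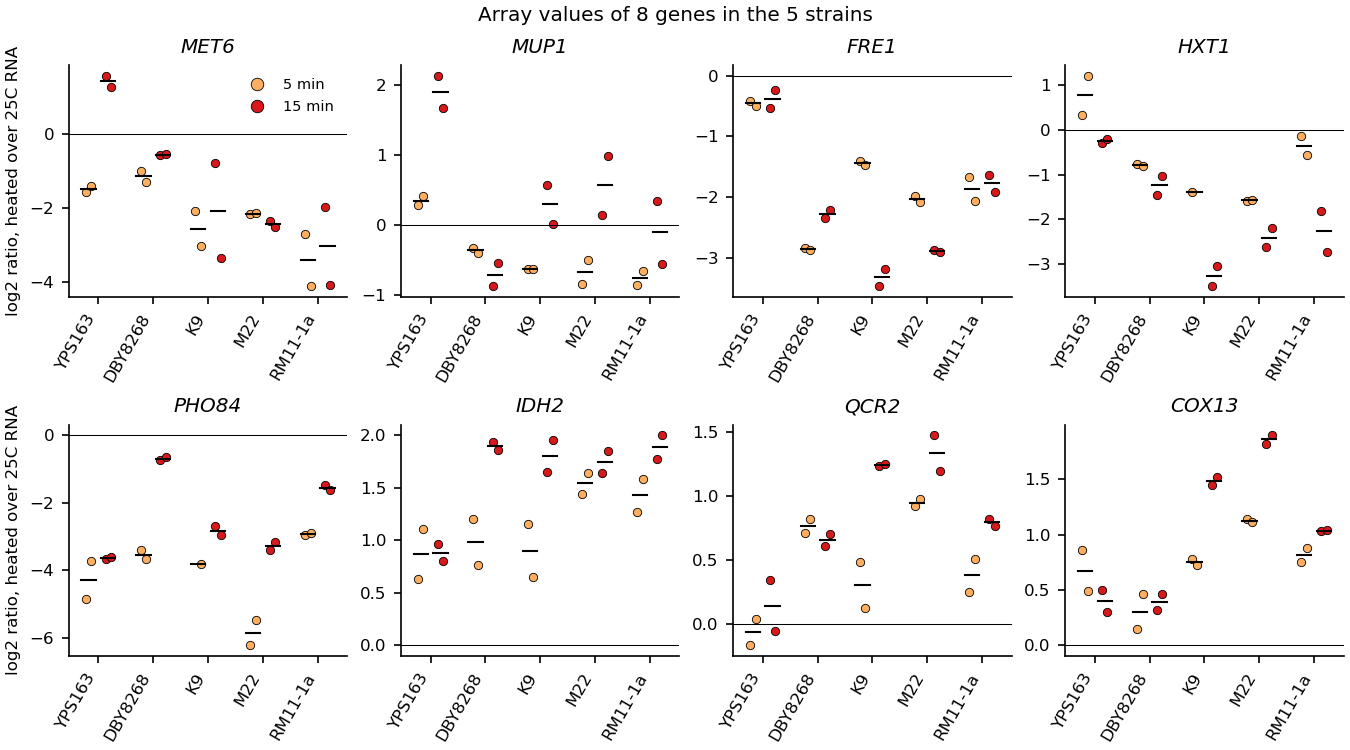
Log2 ratio of heated over 25C RNA (y axis) for MET6, MUP1, FRE1, HXT1, PHO84, IDH2, QCR2 and COX13 by strain at 5 and 15 min; each point is an array and each bar a mean of 2 arrays or fewer. YPS163 lies above the other strains for MET6, MUP1, FRE1 and HXT1 at 15 min and below them for PHO84.

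The 29 genes lower in YPS163 at 15 min included a set of respiratory genes. Of 51 tested genes of the TCA cycle and respiratory chain 12 were lower than in the others and none higher (list median −0.40), where 0.621% of all genes were lower. IDH2, a subunit of isocitrate dehydrogenase, had log2 ratios of 0.96 and 0.80 against 1.64 to 2.0 (median 1.86), a difference of −0.98 (SE 0.21, adjusted p = 0.00375). QCR2, of the cytochrome bc1 complex, read 0.34 and −0.06 against 0.61 to 1.48 (median 1.01), a difference of −0.87 (SE 0.18, adjusted p = 0.00296). COX13, of cytochrome c oxidase, read 0.50 and 0.30 against 0.32 to 1.90 (median 1.25), a difference of −0.79 (SE 0.16, adjusted p = 0.00302). The arrays of YPS163 for IDH2 and QCR2 were below all others. The list count was 14 with centred arrays, 14 of 49 with 1 higher without series 1, 2 of 45 without series 2, and 2 with the array code as a term. Without series 2 the differences were −0.79 (adjusted p = 0.0615) for IDH2, −0.64 (adjusted p = 0.0678) for QCR2 and −0.66 (adjusted p = 0.0199) for COX13.

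Relative to 25C, YPS163 had 20 respiratory genes higher and 2 lower at 15 min (median 0.25), and the other strains together 42 higher and 3 lower (median 0.74). Without series 1 the YPS163 count was 9 higher of 49 (median 0.09), without series 2 it was 18 of 45 (median 0.53), and with centred arrays 14 of 51. The starting level differed too: at 25C 32 of 48 of these genes were higher in YPS163 than in DBY8268 and 3 lower (median 1.00, or 0.57 relative to the mean of the other 4 strains), with QCR2 at 1.39, QCR8 at 1.93 and COX13 at 1.51. Of all 29 genes lower at 15 min, 21 of 26 measured at 25C were above the mean of the other 4 strains there. Of the genes higher at 15 min 75 of 208 were, and of all tested genes 2082 of 4331. Called above DBY8268 were 14 of the 26, 9 of the 208 and 390 of the 4331. Across all genes the difference at 15 min correlated with that at 25C by r = −0.208. For the difference at 5 min r was 0.033, and for that in the change between the times −0.225. The differences at 5 and 15 min and that at 25C all contain the YPS163 level at 25C, whose part in these correlations was not tested.

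PHO84 was lower in YPS163 as well, at −3.66 and −3.61 against −3.40 to −0.66 (median −2.16), a difference of −1.58 (SE 0.24, adjusted p = 0.00012). TSA2, a stress-induced peroxiredoxin, read 0.26 and 0.53 against 1.12 to 2.64 (median 1.31), a difference of −1.17 (SE 0.23, adjusted p = 0.00302). Both YPS163 arrays of these genes were the lowest of all arrays. SFA1 differed by −1.42 (adjusted p = 5.53e-07) from the mean of the others, although its YPS163 arrays lay within their range. RPM2 differed by −0.79 (adjusted p = 0.0138), and by −0.54 (adjusted p = 0.116) without series 2. RAD26, a repair ATPase singled out after its values were seen, rests on 1 array per time, with 0.73 at 5 min in series 1 and −5.18 at 15 min in series 2.

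The ribosomal protein genes carry the difference between the series. At 15 min 21 of 137 were called higher in YPS163 than in the others and none lower (list median 0.66), among them RPL1A at 1.04 (adjusted p = 0.00489) and RPS0B at 1.02 (adjusted p = 0.00302). Without series 1 these were 0.26 (adjusted p = 0.644) and 0.39 (adjusted p = 0.489). In the list none was then called and the median was −0.00; without series 2 94 of 125 were called higher with a median of 1.28. With centred arrays 7 were called, with the array code as a term 2, and with the series as a block 76. The list's median over the other 8 arrays ran from −3.29 to −2.17 at 15 min, so series 2 at −2.70 was inside that range and series 1 at −1.31 above it. At 5 min the others ran from −1.19 to −0.07, and again series 2 at −0.65 was inside and series 1 at 0.155 above. The methionine and sulfur list had medians per array of 0.67 and 0.38 in series 1 and 2 at 15 min and from −0.25 to 0.22 on the other arrays, with different genes measured on each array; on the fitted values it differed by series, as given above. For the respiratory list the medians were 0.51 and 0.04, and from 0.275 to 1.10 on the others.

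**Figure D5:**
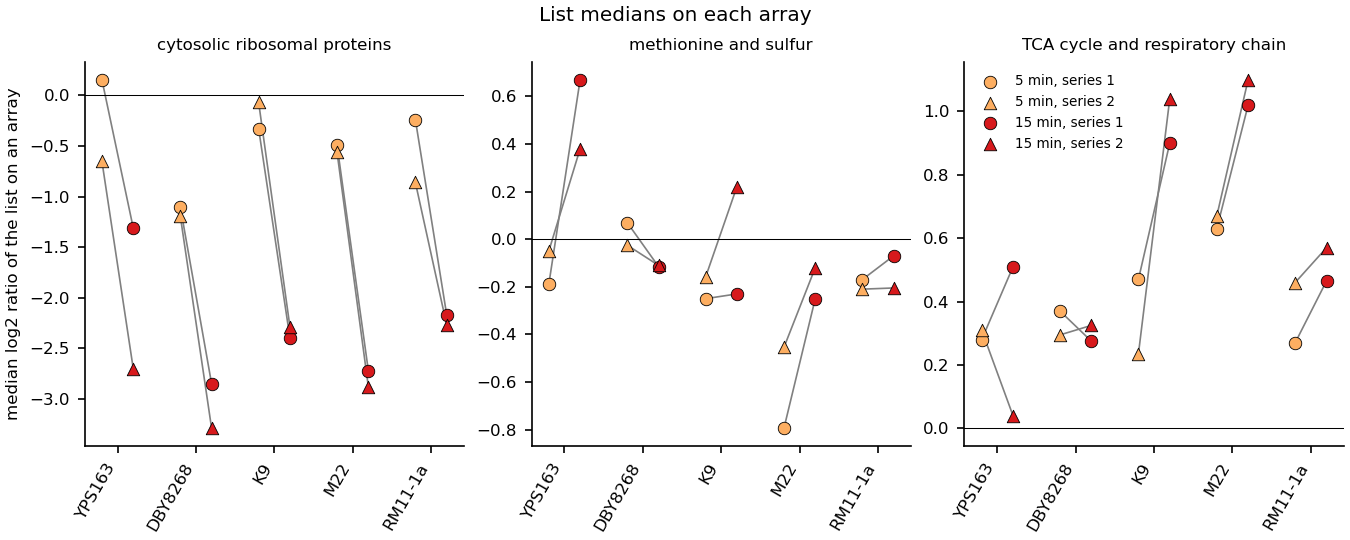
Median log2 ratio per array (y axis) of the ribosomal protein, methionine and sulfur, and TCA and respiratory lists at 5 and 15 min, with a line joining the 2 arrays of a series. For ribosomal proteins YPS163 series 1 lies above all other arrays at both times and series 2 within them; for methionine and sulfur genes both YPS163 arrays are above the others at 15 min.

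The change from 5 to 15 min itself differed between YPS163 and the others in 2 genes (0.0428% of those tested), 1 each way (0.0214%), with 306 at an unadjusted p under 0.05 in the same limma fit. URH1, a uridine hydrolase, had log2 ratios of −2.19 and −0.30 at 5 min and 0.16 and 0.53 at 15 min, and its change exceeded that of the others by 1.78 (SE 0.35, adjusted p = 0.0319); without series 1 the excess was 1.03 (adjusted p = 0.314). RAD26 was the other, at −6.21 (adjusted p = 2.15e-07), on the single arrays given above. Of the 586 genes that changed between the times in YPS163, 571 (97.4%) had the same sign in the mean of the other strains and 507 were called there, where 37.5% of all genes were called (17% upward and 20.5% downward). The count of 2 was 5 with centred arrays, 24 with the series as a block, 30 without YPS163 series 2 and 1 without series 1. It was 0 without K9 or M22 series 2, 9 without K9 series 1, 4 without RM11-1a series 2, and 1 without M22 series 1 or either DBY8268 array.

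Counts for several further lists are given here, some near the shares of all genes and others not. Over all genes 20.9% were higher and 13.5% lower at 5 min, and 31.4% higher and 23.3% lower at 15 min. Mitochondrial ribosomal protein genes fell in 12 of 68 at 5 min, near the 13.5% of all genes, and gave 7 higher and 7 lower at 15 min. With centred arrays 20 fell at 5 min, and 5 were higher and 14 lower at 15 min; without series 1 1 of 64 fell at 5 min and without series 2 14 of 53. At 25C 48 of 66 were higher in YPS163 than in DBY8268. Of 31 cyclin and G1/S genes 12 fell at 5 min, and 15 fell and 3 rose at 15 min, with POL30, the replication clamp, at −1.94 (adjusted p = 5.37e-09); with the array code as a term 1 fell at 5 min. Of 30 iron and copper genes 8 rose and 1 fell at 5 min, and 8 rose and 3 fell at 15 min; without series 1 13 rose and 2 fell of 24 at 15 min, and without series 2 5 rose and 5 fell of 22. Of 9 zinc genes 5 fell at each time, with ZRT1 at −1.71 and −1.39, and without series 1 3 and 2 of 8 fell. Ergosterol genes gave 3 higher and 1 lower of 25 at 5 min and 4 higher and 6 lower at 15 min, with ERG3, the C-5 sterol desaturase, at −1.15 (adjusted p = 9.23e-06). Sphingolipid genes gave 5 higher and 1 lower of 18, then 5 higher and 6 lower, with YDC1, a ceramidase, at 3.05 (adjusted p = 3.28e-12). Glycolysis and fermentation genes gave 4 higher of 25 at 5 min, and 3 higher and 4 lower at 15 min, with GLK1, glucokinase, at 3.94 and 5.32.

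Amino acid synthesis genes gave 4 higher and 33 lower of 62 at 15 min (median −0.70), with ILV1, threonine deaminase, at −1.89 (adjusted p = 3.3e-12); the counts of lower genes were 31 of 57 and 28 of 51 without either series. At 5 min the list gave 6 higher and 12 lower, but the direction turned on the series. Without series 1, 12 were higher and 4 lower (median 0.21), without series 2 none was higher and 16 lower (median −0.37), and with the array code as a term 2 were higher and 2 lower.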

How the data were processed

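The deposited values are log ratios per reading frame, made by the authors from 2-colour arrays and taken here as log2 of heated over 25C RNA. Per the labels' protocols RNA was extracted with hot phenol and labelled indirectly with cyanine dyes; normalization, filters and centring are not given in the sources used here, and an array's number of values limits precision. Of 6297 reading frames 5832 were matched to symbols in a RefSeq table (assembly R64), which gave names only. The members and gene lists were chosen with earlier results of these data known, and no test treats them as fixed beforehand. Groups came from the labels.

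For 4670 genes with a value in each of 10 groups (5 strains at 5 and 15 min), 30 group means and a dye term were fitted by least squares over 60 arrays, with limma 3.58.1 moderation in R 4.3.3 and Benjamini-Hochberg adjustment over all genes of a comparison at 0.05. The 25C fit used 8 arrays and 5306 genes with at least 6 values. The fit was tested on simulated data. Differences between strains are YPS163 minus the mean of the other 4 strains.

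Arrays of a series share the label of their 25C reference at both times, so the series numbers pair them; deviations from the group means correlated by 0.484 in YPS163 and from 0.268 to 0.582 over the 5 strains. The block takes the difference between series out of the error.

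Named genes are the fixed heat shock genes; among genes measured on all 4 arrays, the highest and lowest called genes with the same sign on both arrays (6 each way per time, 8 each way for the change) and those outside the other strains' range (8 each way); the 3 members of each list with the smallest p in each comparison; and up to 5 genes per direction called with opposite signs at the 2 times or between strains. Other names were picked after their values were seen: MET17, RAD26, ASP3-1, LEU2 and URA3. Alternatives were centring, no dye term, other array sets and filters, the series block, the array code and leaving out arrays.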

Additional observations from a re-analysis of the deposited data

Results flagged for a closer look

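At 5 min the difference between YPS163 and the mean of the other 4 strains was called by the limma fit in 39 genes, at 15 min in 254 and in the change between the times in 2, and a tested difference between strains is what brought each result here. At 5 min 10 called genes had both YPS163 arrays above all the others; among those measured on all 4 YPS163 arrays, the 8 with the largest differences were HXT1 (1.78), FRE1 (1.60), UTP9 (1.59), TIM8 (1.05), MUP1 (0.92), MSN4 (0.78), NUP133 (0.71) and UBP11 (0.69), all as log2 differences. TIM8 is a chaperone of the mitochondrial intermembrane space, NUP133 a nuclear pore protein and UBP11 a ubiquitin protease. Leaving out series 1 gave 0.66 (adjusted p = 0.0515) for TIM8, 0.72 (adjusted p = 0.116) for NUP133 and 0.46 (adjusted p = 0.261) for UBP11, and the array code cannot be told apart from the strain at this time.

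At 15 min 106 called genes lay above all the others in this way and 13 below. Among those measured on all 4 arrays, the 8 with the largest differences upward were MET6 (3.47), FRE1 (2.19), HXT1 (2.02), MUP1 (1.87), MRH1 (1.70), IRC7 (1.66), CWP1 (1.44) and RIX1 (1.29), and the 8 downward were PHO84 (−1.58), TSA2 (−1.17), IDH2 (−0.98), QCR2 (−0.87), QCR8 (−0.84), IDH1 (−0.83), RPM2 (−0.79) and COX12 (−0.74). RIX1, a factor of large-subunit assembly, was 1.2 (adjusted p = 0.11) without series 1. Without series 2 the lower genes QCR8, IDH1 and COX12 were at −0.50 (adjusted p = 0.116), −0.54 (adjusted p = 0.165) and −0.56 (adjusted p = 0.107).

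URH1 was the gene with a larger change from 5 to 15 min in YPS163 on all 4 arrays (1.78). At 15 min 3 further genes were called higher in YPS163 than at 25C, and lower in the mean of the others: YOR296W (0.71), CHO2 (0.93), which methylates phosphatidylethanolamine, and MGA2 (0.95), which regulates the fatty acid desaturase gene OLE1. In YPS163 they changed by 0.48, 0.48 and 0.64 and in the others by −0.23, −0.45 and −0.31.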

How the results depend on the processing

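With 2 arrays per group the counts moved with the setting. The directions of the named genes cannot be checked in this way, because these genes were chosen as called in these data. Many were also chosen for the same sign on both arrays. A change of sign was thus unlikely beforehand, and nothing is concluded from its absence. Of 4946 recomputed values of named genes that were called, 4357 stayed called with the same sign, 589 were no longer called and 0 changed sign. The 5 min count of 1606 was 1022 with values on all 4 YPS163 arrays (2622 genes tested), 727 with the array code as a term, 939 with the 12 YPS163 arrays alone, and 1072 to 1131 without either series. The 15 min count of 2553 was 1601 on all 4 arrays and 1738 to 1752 without either series. The count of 586 changed genes was 905 with the replicate block, 341 with the array code, 9 with the 12 arrays alone (all downward) and 368 to 475 without either series.

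Against the other strains the 5 min count of 39 was 21 with no dye term, 2 with the 20 arrays of the 2 times alone, 238 with the replicate block, 1 with the array code, 72 leaving K9 aside and 21 leaving M22 aside. It ran from 4 to 142 when single arrays were left out. The 15 min count of 254 was 139 with centred arrays, 59 with the 20 arrays alone, 688 with the replicate block, 54 with the array code and 108 to 350 without single arrays. The count of 2 for the change was 5 with centred arrays, 1 with the 20 arrays alone, 0 with values in all 30 groups (279 at an unadjusted p under 0.05 in limma), 1 with all 4 YPS163 values, 24 with the replicate block, 4 leaving M22 aside and 0 to 30 without single arrays. The 25C count of 1098 was 342 to 348 without either array. Fewer arrays leave fewer residual degrees of freedom and fewer genes tested; otherwise the cause was not tested. When a group is left with 1 array, that array is assumed to vary like the other groups.

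For the fixed heat shock genes 49 differences were not called, 29 of them turned sign in at least 1 setting, and no direction is given for them; this was settled after the results were seen. Signals over background are not part of the deposited values used here, so low spots cannot be told from well-measured ones.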
